A study of Mus musculus with 2 samples.

Results

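The nuclear genes of the oxidative phosphorylation machinery were taken by their symbols. A gene was a member when its symbol began with Nduf, Uqcr, Cox4i, Cox5, Cox6, Cox7, Cox8 or Atp5, or was Sdha, Sdhb, Sdhc or Sdhd. This gave 94 of the 32285 gene rows, and 91 of them had at least 50 unique molecular identifiers (UMIs, the tags that mark single captured transcripts) over both libraries. Cox7b2, Cox8b and Cox8c had 0 UMIs. By name, 39 members belonged to complex I, 8 to its assembly factors (Ndufaf), 4 to complex II, 8 to complex III, 18 to complex IV and 17 to complex V. The study compared cells of CT26 tumours, a colon carcinoma cell line grown in BALB/c mice, that were either mock or expressed PTIR1, which the title names as acting against the immunoproteasome. The source label names lymphocytes that infiltrate the tumour, while the counts also held transcripts of myeloid cells, fibroblasts and tumour cells. Each group was 1 library of single cells, with no number of animals in the labels, so no test between groups was possible and every interval below is a 95% interval for counting error only. PTIR1 itself was not analysed here, so the labels were not checked against its level.

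Oxidative phosphorylation passes electrons from NADH (complex I) and succinate (complex II) through complex III to oxygen at complex IV, and the proton gradient this builds drives ATP synthesis at complex V. Nuclear genes encode all subunits of complex II and most subunits of the other complexes, while mitochondrial DNA encodes a few core subunits. Several nuclear subunits of complex IV exist as tissue isoforms, such as the muscle forms Cox6a2 and Cox7a1, the testis form Cox6b2 and the low-oxygen form Cox4i2. The transcription factors NRF1 and GABP (an ETS factor), YY1 and the oestrogen-related receptors are known to bind near many of these genes.

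RefSeq promoter windows were matched by symbol for 75 of the 94 members on build GRCm38.p6, the assembly that is also called mm10. In the 250 bases before the annotated start, on either strand, the NRF1 word GCGCANGCG was found in 15 of the 75 members (20%) against 1584 of 27025 genes with a window (5.86%). Those members were Atp5c1, Atp5g2, Atp5h, Atp5k, Atp5l, Cox6a1, Ndufa5, Ndufa8, Ndufa11, Ndufaf4, Ndufb4, Ndufs5, Ndufs6, Sdha and Sdhd. The ETS word CCGGAAGT was in 3 members (4%, against 3.23% of all genes), the YY1 word AAGATGGC in 1 (1.33%, against 1.83%) and the word TCAAGGTCA of the oestrogen-related receptors in 1 (1.33%, against 0.422%). The windows of 3 members described below, which lie wholly outside annotated exons, are printed as examples with an NRF1 word (Ndufaf4, chr4:24897833-24898082, plus strand), with a word of the oestrogen-related receptors read on the other strand (Atp5g3, chr2:73911327-73911576, minus strand) and with none of these words (Ndufb6, chr4:40279422-40279671, minus strand). Capitals mark the words, and in Ndufaf4 the word was matched on both strands at overlapping positions.
Ndufaf4: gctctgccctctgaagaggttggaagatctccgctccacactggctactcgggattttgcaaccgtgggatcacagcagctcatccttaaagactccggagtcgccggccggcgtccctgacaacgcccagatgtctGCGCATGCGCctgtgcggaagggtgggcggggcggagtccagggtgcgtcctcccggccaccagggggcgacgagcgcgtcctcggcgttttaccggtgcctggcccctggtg
Atp5g3: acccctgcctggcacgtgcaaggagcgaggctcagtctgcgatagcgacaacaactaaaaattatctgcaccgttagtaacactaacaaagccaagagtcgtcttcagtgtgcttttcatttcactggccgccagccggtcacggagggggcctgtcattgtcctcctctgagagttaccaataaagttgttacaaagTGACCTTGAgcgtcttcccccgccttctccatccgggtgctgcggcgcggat
Ndufb6: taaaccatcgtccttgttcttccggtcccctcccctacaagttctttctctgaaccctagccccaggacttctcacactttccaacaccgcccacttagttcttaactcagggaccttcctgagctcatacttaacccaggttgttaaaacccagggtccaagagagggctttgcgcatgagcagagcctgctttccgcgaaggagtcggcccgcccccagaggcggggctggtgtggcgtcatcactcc
A match describes letters only, and binding was not measured. The genes with a window were not matched to the members for gene type or base composition, and the part of these in the shares was not tested.

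Depth and cell content differed between the libraries. The mock library held 10833 barcodes with 95166611 UMIs and the PTIR1 library 9006 barcodes with 98540561 UMIs, and 30 barcode sequences occurred in both. Cells that reached 200 genes, with mitochondrial UMIs held to 10%, were sorted into 10 classes by marker genes, with thresholds set after the counts were seen. In the mock and PTIR1 libraries, 3868 and 4060 cells passed exactly 1 gate. A further 5086 and 3104 cells passed none, with median depths of 988 and 1556 UMIs. Cells that passed several gates, 374 and 403, were left out as possible doublets. The gates gave 2045 and 1507 macrophage, 144 and 229 neutrophil, 494 and 577 natural killer (NK), 251 and 113 T, 419 and 749 B, and 143 and 65 CT26 tumour cells in mock and PTIR1. They also gave 54 and 69 conventional dendritic, 89 and 85 plasmacytoid dendritic, 202 and 86 mast cells, and 27 and 580 fibroblasts. No gate was set for monocytes, so the macrophage class may hold them, which was not tested. Of the 13 tumour markers, 6 were detected in at least 10% of tumour-gated cells (Tm4sf1, Krt20, Itgb4, Slurp1 and Krt18 in both libraries, with Lgals4 in mock and Krt8 in PTIR1), and the epithelial markers Epcam, Cldn4, Cldn7 and Krt7 were at 0 in both libraries.

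The members made up a similar part of the transcripts in most classes and a much smaller part in neutrophils. In the mock library the summed level was 21480.4 UMIs per 1e6 UMIs of the class (counts per 1e6, CPM) in plasmacytoid dendritic cells, 21121 in tumour cells, 20708 in mast cells, 19841 in macrophages, 19798 in NK cells, 19770.2 in fibroblasts, 18707 in T cells, 17952 in conventional dendritic cells, 14985 in B cells and 8546 in neutrophils. In the PTIR1 library the order was tumour cells (23268 CPM), mast cells (22056), plasmacytoid dendritic cells (20796), NK cells (20153), T cells (19263), fibroblasts (18675), macrophages (18544), conventional dendritic cells (16678), B cells (15568) and neutrophils (10595). The place of plasmacytoid dendritic cells rested on Cox6a2. Without that gene their sum in mock was 19966 CPM, below tumour cells (21108) and mast cells (20707). In PTIR1 they stood below tumour and mast cells with the gene and without it (23266 and 22052 CPM without it). There their sum without it was 19243 CPM, and they moved from rank 3 to rank 5, behind NK cells (20150 CPM) and just behind T cells (19262 CPM). Macrophages, NK cells and fibroblasts of the mock library were not distinguishable in this order by counting error, with ratios to macrophages of 0.998 (0.991 to 1.004) for NK cells and 0.996 (0.981 to 1.01) for fibroblasts. Neutrophils stood at 0.431 (0.418 to 0.444) of the macrophage level in mock and 0.571 (0.559 to 0.584) in PTIR1, and B cells at 0.755 and 0.84. The place of B cells depended on the denominator. Their log2 ratio to macrophages was -0.40 in mock and -0.25 in PTIR1, -0.38 and -0.23 with mitochondrially encoded genes left out of the total, and -0.18 and 0.015 with ribosomal protein genes left out as well.

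**Figure D1:**
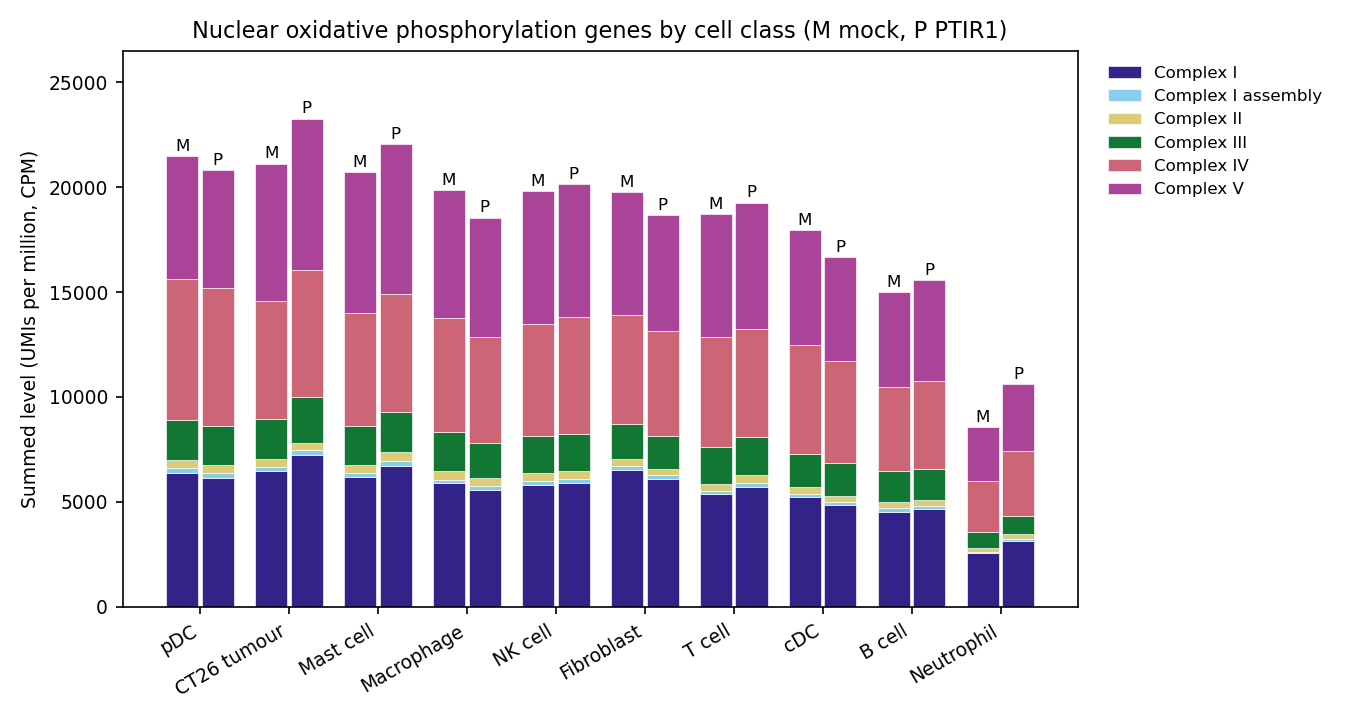
Stacked bars give the summed CPM of the members by complex (linear axis from 0) for each cell class, mock (M) and PTIR1 (P) side by side, 1 library each, with classes in the order of the mock library. The bars of neutrophils, 8546 and 10595 CPM, are the lowest of the 10 classes in both libraries.

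The low neutrophil level was spread over the members. Of the 91 members, 83 in mock and 76 in PTIR1 were at their lowest class level in neutrophils, and 73 were so in both libraries. Of 90 members compared with macrophages, 89 in mock and 88 in PTIR1 were below the macrophage level, with median ratios of 0.402 and 0.538. The same shares over all genes are not given here, so whether the members differ in this from other genes was not tested. In neutrophils S100a8 and S100a9 alone stood at 26202 and 52027 CPM in mock, and at 21714 and 46301 CPM in PTIR1. The complex I assembly gene Ndufaf7 was above the macrophage level in both libraries, at 14.7 and 17.4 CPM against 7.75 and 8.94 CPM. Its neutrophil levels rested on only 7 and 13 UMIs, too few for a member to count as measured in the ratios below. The complex I accessory subunit Ndufa7 came close to the macrophage level, at 143 and 144 CPM against 157 and 153 CPM. Both were chosen after their values were seen. Cox8a, the most abundant member in neutrophils in mock, stood at 505 and 529 CPM there against 764 and 725 CPM in macrophages. Macrophage RNA was present in the neutrophil droplets: 53 of 144 mock (36.8%) and 46 of 229 PTIR1 neutrophils (20.1%) had a UMI of C1qa, C1qb or C1qc, complement genes of macrophages. In the macrophage class itself such cells were 54.2% in mock and 47.0% in PTIR1. In the other classes apart from macrophages such cells were 18.8% (mast) to 42.6% (conventional dendritic) in mock. In PTIR1 they were 16.5% (plasmacytoid dendritic) to 26.2% (tumour). The summed C1q level was 179 and 88.6 CPM in neutrophils and at most 78.8 and 40.3 CPM in those classes. The part of such RNA in the neutrophil level was not tested.

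The complexes kept similar proportions in all classes. Complex I gave 28.7% (T cells, mock) to 32.9% (fibroblasts, mock) of member UMIs, complex V 26.9% (plasmacytoid dendritic cells, PTIR1) to 32.5% (mast cells, PTIR1) and complex IV 25.4% (mast cells, PTIR1) to 31.8% (plasmacytoid dendritic cells, PTIR1). Without Cox6a2, plasmacytoid dendritic cells had 25.9% (mock) and 26.3% (PTIR1) in complex IV and 29.4% and 29.0% in complex V, and the highest complex IV share was 29.3%, in conventional dendritic cells of PTIR1. Complex III gave 8.22% to 9.84%, complex II 1.57% to 2.16% and the assembly factors 0.776% to 1.16%. These are shares of transcripts captured at their 3' ends, which do not scale with transcript length. The mitochondrially encoded subunits did not follow the same proportions. Their 13 genes summed to 1.26 and 1.34 times the nuclear members in macrophages of mock and PTIR1, 1.45 and 1.22 times in neutrophils, 2.84 and 2.74 times in B cells and 3.06 and 3.05 times in fibroblasts, in cells that the filter had held to at most 10% mitochondrial UMIs.

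**Figure D2:**
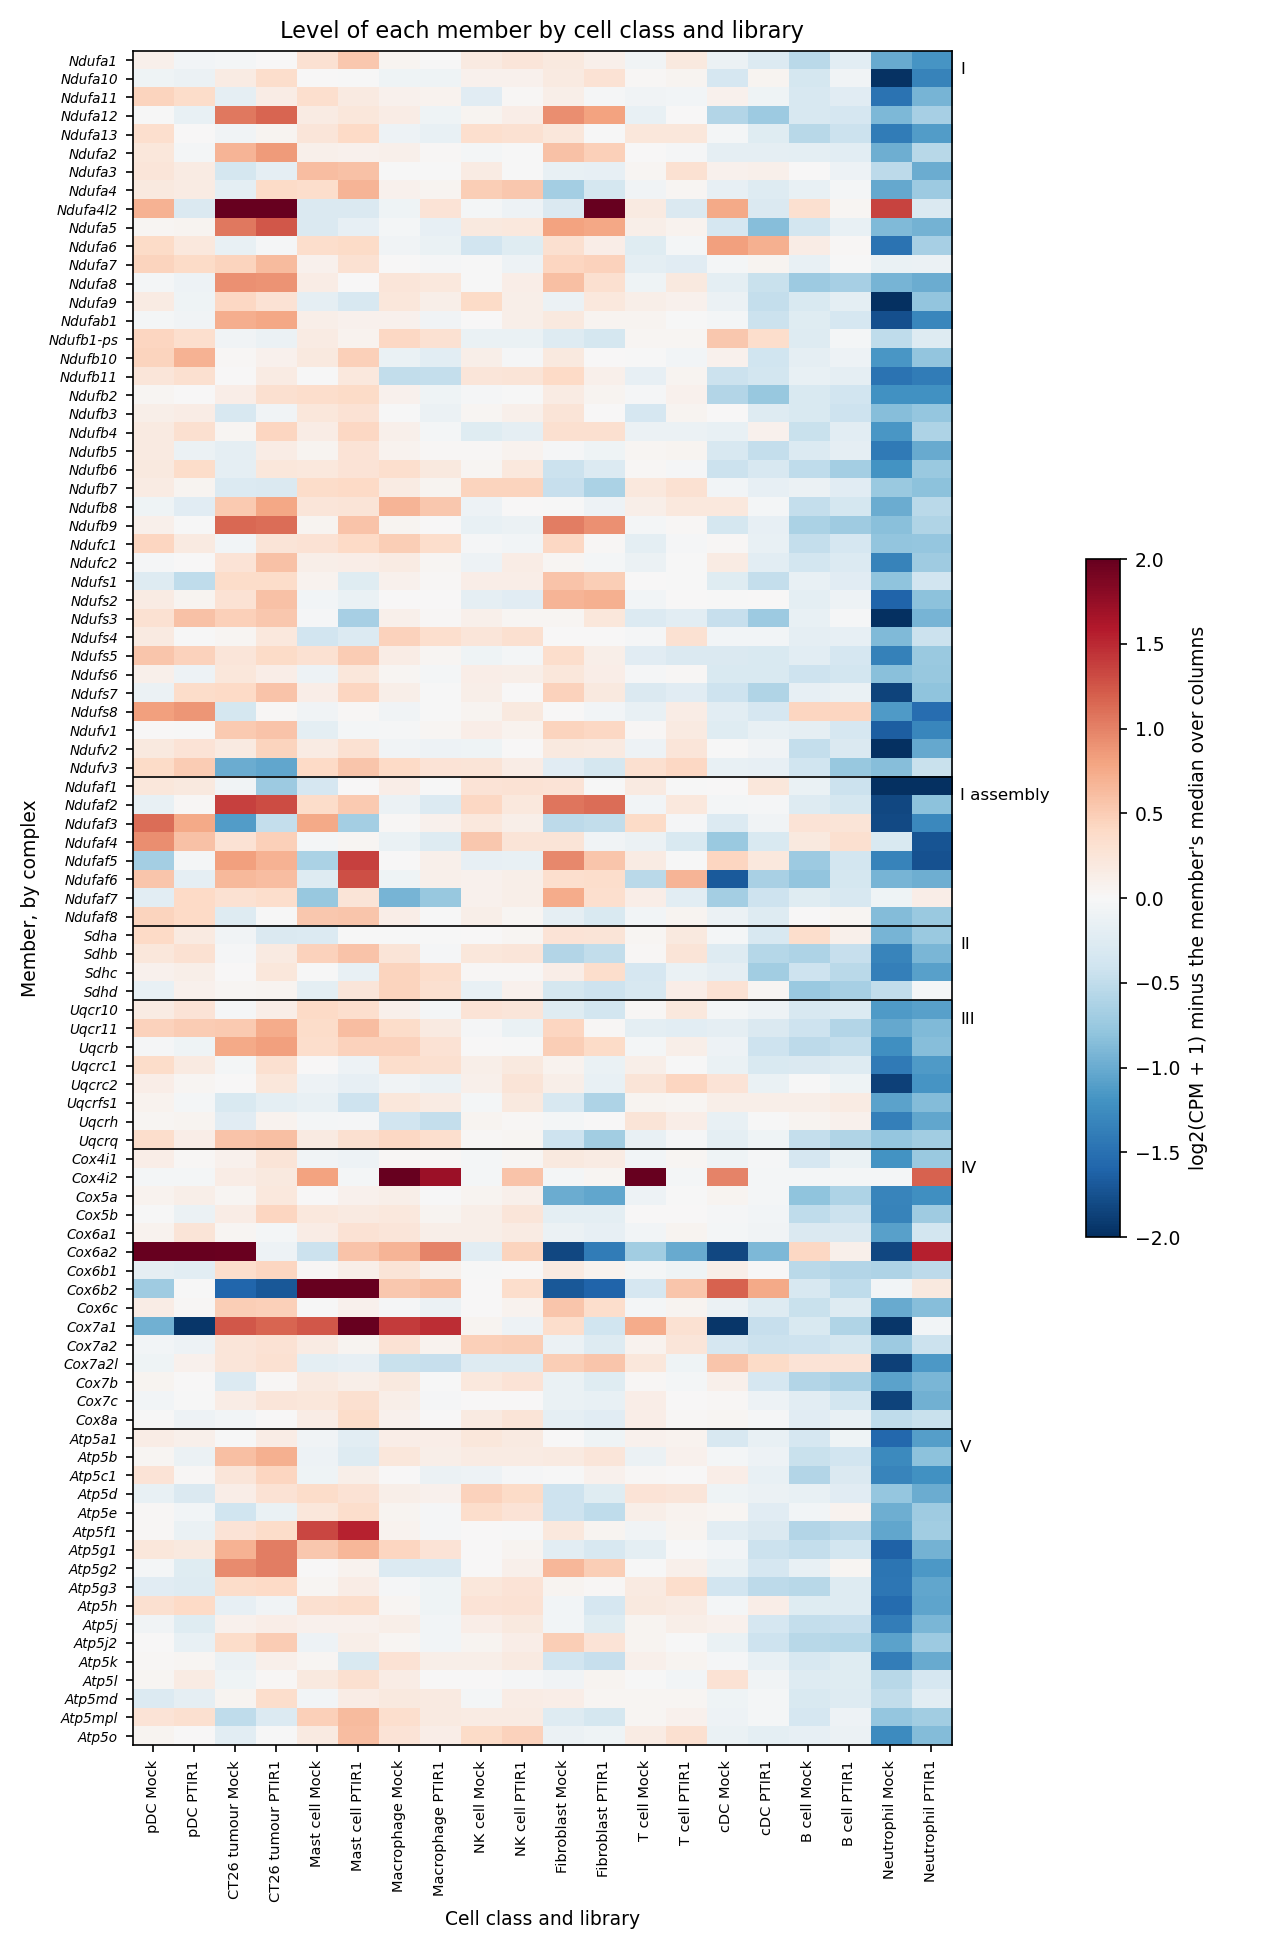
Colours give log2(CPM + 1) of each of the 91 members in each class and library (columns), minus the member's median over the columns, with members grouped by complex. The neutrophil columns at the right are low for most rows, and dark red fields mark Cox6a2 in plasmacytoid dendritic cells, Cox6b2 in mast cells and Ndufa4l2 in tumour cells.

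For 81 of 91 members the highest class was at most 2 times the median over classes. Tumour cells were the highest class for 31 members, mast cells for 14, NK cells and plasmacytoid dendritic cells for 12 each and macrophages for 11, while no member was highest in neutrophils or B cells. For 50 members the highest class was the same in both libraries. The same counts over all genes are not given here, so whether these patterns are particular to the members was not tested. The 10 members with the largest ratio of the highest class to the median were Cox6a2, Ndufa4l2, Cox6b2, Cox4i2, Cox7a1, Atp5f1, Ndufaf2, Ndufa5, Ndufb9 and Ndufa12, of which the first 5 are isoforms known from particular tissues or from low oxygen.

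Cox6a2, the heart and skeletal muscle form of complex IV subunit 6A (chr7:128205435-128206387, minus strand), was the most restricted member. It stood at 1514 CPM (1440 to 1591) in mock and 1553 CPM (1473 to 1636) in PTIR1 plasmacytoid dendritic cells, while in the other classes it ranged from 0 to 12.8 CPM in mock and from 0.329 to 9.39 CPM in PTIR1. Both libraries were therefore high in this class and low in all others. It was detected in 82 of 89 mock and 80 of 85 PTIR1 plasmacytoid dendritic cells, and the 5 cells with most UMIs held 12.5% and 13.9% of them. After thinning every cell to 1000 UMIs, 68.5% and 75.3% of plasmacytoid dendritic cells had a Cox6a2 UMI, against 0.347% and 0.467% of macrophages, whose median depths before thinning were 14880 and 14367 UMIs against 11908 and 10730 in the dendritic cells.

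The ubiquitous paralog Cox6a1 did not give way in plasmacytoid dendritic cells. Cox6a1 stood at 276 and 314 CPM there, inside its range in the other classes apart from neutrophils (213 to 309 CPM in mock, 213 to 320 CPM in PTIR1). Cox6a2 was 84.6% (82.9% to 86.2%) of Cox6a UMIs in mock and 83.2% (81.3% to 84.9%) in PTIR1 plasmacytoid dendritic cells, and at most 4.55% in any other class. Skeletal muscle markers did not accompany it: Acta1, Ckm, Myh4, Tnnt3 and Mb summed to 3.87 and 2.21 CPM in these cells. Itgad, whose exons overlap Cox6a2 on the opposite strand, stood at 13.5 and 11.1 CPM, and use of strand in the counting is not given in the sources used here. Macrophages held 160 and 154 Cox6a2 UMIs, of which 56.9% and 61.0% came from 5 cells.

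Other restricted members were at low levels. Cox6b2, the testis form of subunit 6B, stood at 39.7 CPM (29.4 to 52.5) and 27.6 CPM (14.7 to 47.1) in mast cells, and at 0 to 6.33 CPM in the other classes. It was 8.10% and 5.46% of Cox6b UMIs in mast cells. Cox4i2 was highest in macrophages, at 4.03 and 2.37 CPM, and was at most 0.436% of Cox4i UMIs in any class. Cox7a1, a muscle form, stood at 9.05 and 9.72 CPM in macrophages and at 8.10 and 14.8 CPM in mast cells, with tumour cells at 8.08 and 7.56 CPM. Ndufa4l2, a gene known to respond to low oxygen, stood at 12.7 CPM in mock tumour cells, 4.04 CPM in PTIR1 tumour cells and 4.21 CPM in PTIR1 fibroblasts, and at most at 2.11 CPM elsewhere. The 2.11 CPM was 1 UMI in mock neutrophils, with an interval up to 11.7 CPM. The 27 mock fibroblasts had 0 UMIs and an interval up to 4.76 CPM, so the fibroblasts of the 2 libraries were not distinguishable by counting error.

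Abundant members with a class pattern were fewer. Atp5f1, the b subunit of the stalk of ATP synthase, was at 965 and 1109 CPM in mast cells against 185 to 465 CPM (mock) and 236 to 496 CPM (PTIR1) in the other classes. Wdr77, which overlaps it on the opposite strand, was at 39.7 and 25.4 CPM in mast cells. Tumour cells and fibroblasts shared the highest levels of Ndufb9, Ndufa12 and Ndufa5, accessory subunits of complex I, and of the assembly factor Ndufaf2. Ndufb9 stood at 547 and 534 CPM in tumour cells and at 499 and 467 CPM in fibroblasts, and at 137 to 367 CPM in the other classes. Ndufaf2 stood at 46.2 and 44.5 CPM in tumour cells and 37.4 and 38.7 CPM in fibroblasts. These gates were not cleanly apart: fibroblast-gated cells held tumour markers at 10.4 (mock) and 8.54 (PTIR1) UMIs per 10000, against 14.8 and 12.5 in tumour-gated cells, and tumour-gated cells held fibroblast markers at 5.87 and 6.56, against 32.6 and 40.1. The 27 mock fibroblasts had no UMI of Col6a2 or Mfap5. The part of this overlap in the shared levels was not tested.

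**Figure D3:**
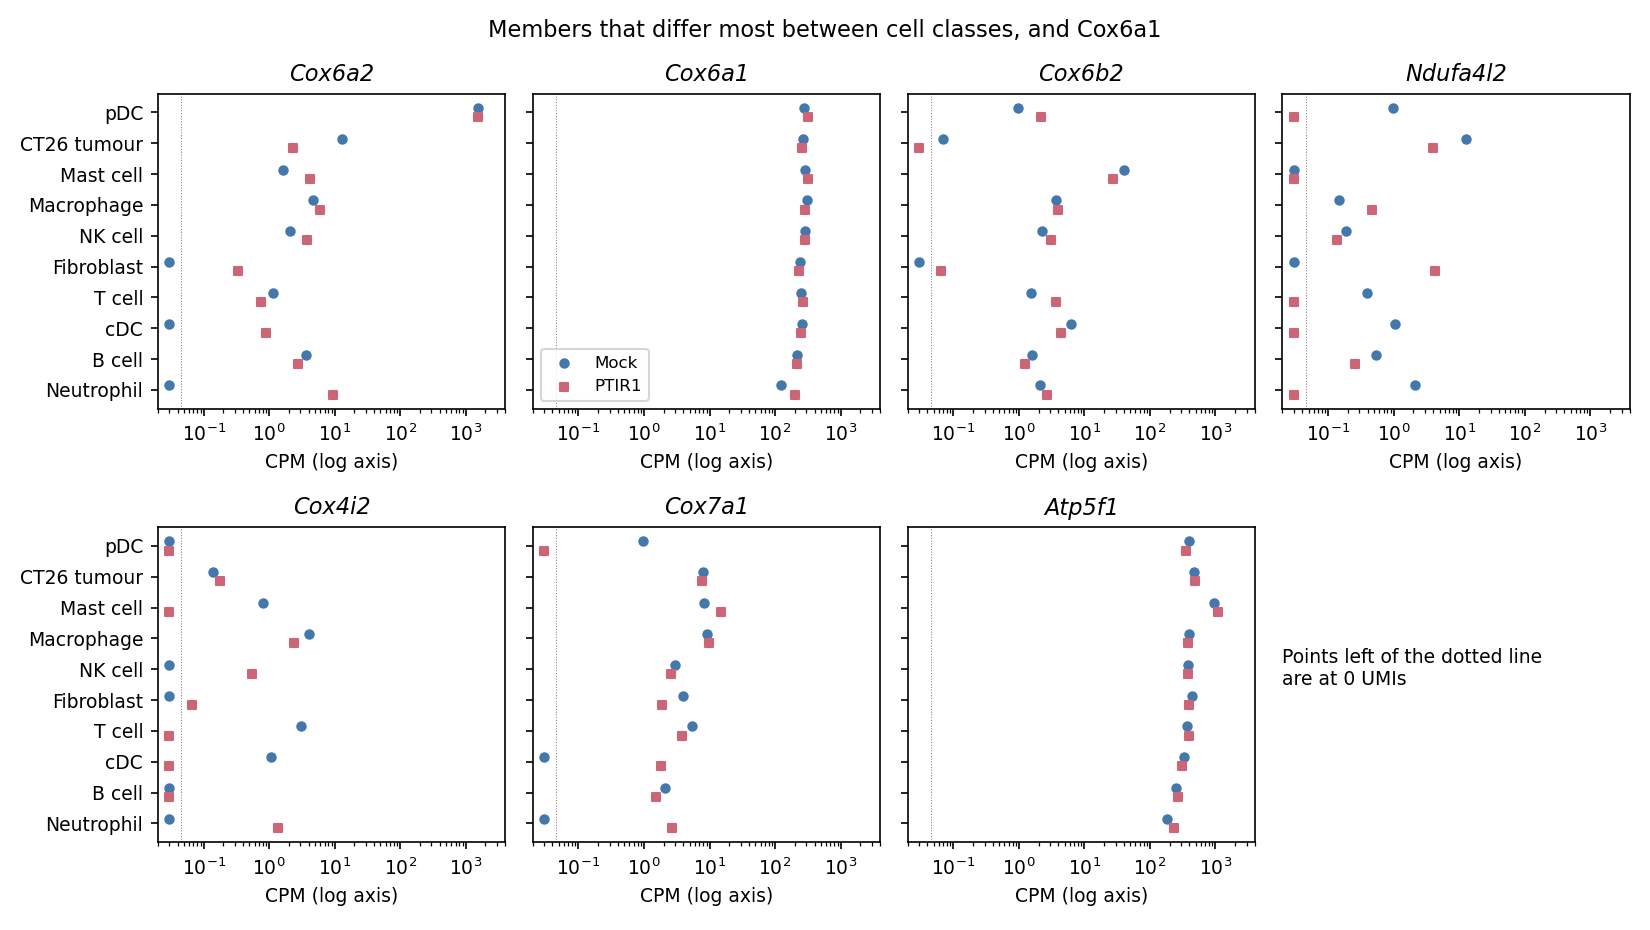
Points give CPM (log axis, with points left of the dotted line at 0 UMIs) in each class, circles mock and squares PTIR1, 1 library each, for 6 members that differ between classes and for Cox6a1. Cox6a2 lies above 1000 CPM in plasmacytoid dendritic cells only, while Cox6a1 lies between 122 and 320 CPM in every class.

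The 2 common subunit 7A genes changed places between classes. Cox7a2, the ubiquitous form, held 58.6% and 54.9% of Cox7a UMIs in macrophages, 59.2% and 59.5% in NK cells and 66.2% and 58.8% in neutrophils. Cox7a2l, which is known as a factor in joining complexes III and IV into supercomplexes, led with 67.8% and 66.4% in conventional dendritic cells, 64.7% and 63.7% in B cells and 63.1% and 66.5% in fibroblasts. In T cells Cox7a2l held 55.4% in mock and 47.5% in PTIR1. Among the genes of the c subunit of ATP synthase, Atp5g2 led in every class and library, with 44.4% (macrophages, mock) to 65.3% (fibroblasts, mock). At least 50% of the 31-base words at its 3' end occur in another annotated gene, as for Atp5h, Atp5l, Cox7c, Ndufs3 and Ndufs5, and at most 10.7% of them in another gene of the count table. For Atp5g1 33.3% of these words occur in another gene of the count table, so its level is uncertain. Cox8a and Cox7b gave all UMIs of their groups, since Cox8b, Cox8c and Cox7b2 were at 0.

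With PTIR1 set against mock, the summed level was lower in macrophages and higher in tumour cells and neutrophils, and differed by a few percent in NK, T and B cells. A member was counted as measured in a class when it had at least 50 UMIs there over both libraries, and as past the threshold when the ratio of CPM was at most 0.8 (lower) or at least the inverse of 0.8 (higher). Every gene with that many UMIs served as the background. The members named in each class are the 5 above 1 and the 5 below 1 whose interval end nearest to 1 lay farthest from 1. The median log2 ratio of the background genes was close to 0 in 5 of these 6 classes (-0.068 to -0.0074) and -0.10 in tumour cells, so a tumour ratio reads about 0.10 lower than one centred on all genes.

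**Figure D4:**
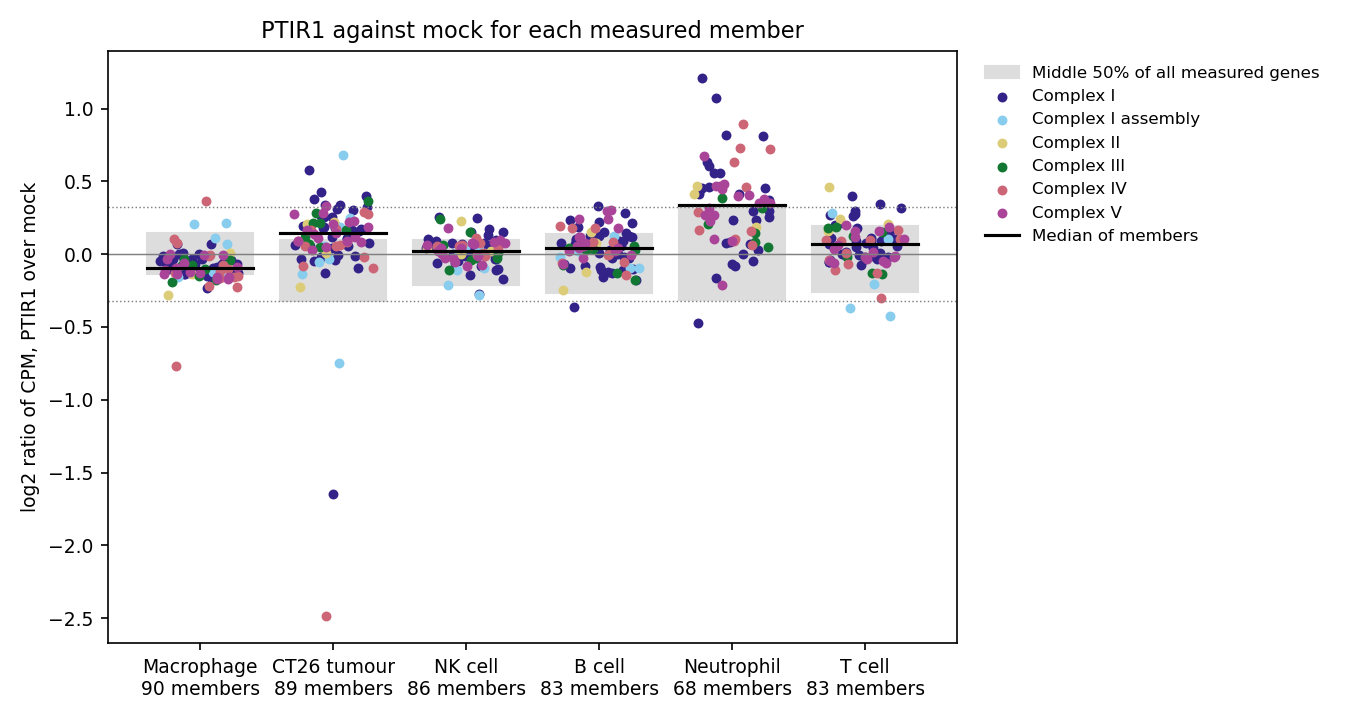
Points give the log2 ratio of CPM, PTIR1 over mock, of each measured member in 6 classes (1 library each), coloured by complex, with the member median as a black line, the middle 50% of all measured genes in grey and dotted lines at the thresholds. The member median is at -0.096 in macrophages, 0.14 in tumour cells and 0.34 in neutrophils.

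In macrophages a small shift ran through most members. The summed level was 19841 CPM in mock and 18544 CPM in PTIR1, a ratio of 0.935 (0.931 to 0.938). Of 90 measured members, 78 had a ratio under 1, against 53.0% of 11723 genes, and the member median was -0.096 on the log2 scale against -0.014 for all genes. Only 1 member was past the threshold in each direction, against a background of 8.20% lower and 13.5% higher. By complex the ratio was 0.947 for complex I, 0.902 for II, 0.925 for III, 0.926 for IV and 0.936 for V, and all 8 complex III and all 17 complex V members were under 1. The ratio was in the same direction among macrophages with an Arg1 UMI (19505 to 18415 CPM) and without one (20776 to 19481 CPM), Arg1 being an enzyme of suppressive macrophages. Macrophages of PTIR1 held fewer C1q transcripts (1525 CPM in mock, 867 CPM in PTIR1) and more transcripts of granule genes of immature neutrophils, a list chosen after the values were seen (36.4 to 210.0 CPM). Their part in the shift was not tested.

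The macrophage members named below 1 were mostly subunits of complexes IV and II. Cox4i2 stood at 4.03 CPM in mock and 2.37 CPM in PTIR1 (ratio 0.588, 0.428 to 0.80), and was present in 97 and 42 cells. Sdhb, the iron-sulphur subunit of succinate dehydrogenase, stood at 147 and 121 CPM (0.822, 0.786 to 0.86). Cox7a2 stood at 417 and 357 CPM, Cox7b at 390 and 335 CPM and the complex I accessory subunit Ndufa12 at 140.2 and 119.5 CPM, with ratios from 0.852 to 0.86. Named above 1 were Cox6a2, at 4.64 and 5.99 CPM (1.29, 1.03 to 1.62), the core complex I subunits Ndufs8 (75.2 and 78.8 CPM) and Ndufv1 (60.3 and 63.3 CPM), Ndufaf6 (8.38 and 9.72 CPM) and Ndufb11 (172 and 173 CPM). Of these 5, the intervals of Ndufs8, Ndufv1, Ndufaf6 and Ndufb11 include 1. Without the 5 cells that held most of it, Cox6a2 stood at 2.01 and 2.35 CPM.

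In tumour cells the summed level was 21121 CPM in mock and 23268 CPM in PTIR1, a ratio of 1.102 (1.095 to 1.109). Of 89 measured members 10 were higher past the threshold, against 9.51% of 9954 genes, and 3 were lower, against 25%. A ratio under 1 was seen in 18 members, against 63.4% of genes. The ratio was 1.12 for complex I, 1.05 for II, 1.12 for III, 1.07 for IV and 1.11 for V. Cells with a Mki67 or Top2a UMI, genes of the cell cycle, differed more than cells without one. Among cells with a Mki67 or Top2a UMI the level was 21139 CPM (122 cells) in mock and 23682 CPM (42 cells) in PTIR1, and among the others 20937 CPM (21 cells) and 21048 CPM (23 cells). Depth moved with this split, with medians of 84493.5 and 69961 UMIs in the former and 54348 and 36169 UMIs in the latter, and its part was not tested. The cell with most UMIs held 5.48% of the tumour UMIs in mock and 9.72% in PTIR1. Without that cell in each library the ratio was 1.08 (1.07 to 1.09) and 7 members were higher past the threshold. With each cell weighing the same, the log2 ratio was 0.048 in place of 0.14. Centred on all genes it was 0.24, and 23 members were higher. For the 7 and the 23 members the share of all genes under the same setting is not given, and the 9.51% does not apply to them.

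Ndufa4 led the tumour members above 1. Ndufa4, now held to be a subunit of complex IV and counted under complex I by its name, stood at 265 CPM in mock and 396 CPM in PTIR1 (1.49, 1.42 to 1.57). The assembly factor Ndufaf3 stood at 10.7 and 17.2 CPM (1.61, 1.23 to 2.08), and its opposite-strand neighbour Impdh2 at 233 and 243 CPM. The complex I accessory subunits Ndufb6 (81.3 and 109 CPM, 1.34) and Ndufb4 (128 and 168 CPM, 1.32) followed, with Atp5g1 of the c ring (338 and 425 CPM, 1.26). Without the cell of most UMIs in each library the ratio was 1.38 for Ndufa4, 1.68 for Ndufaf3, 1.30 for Ndufb6, 1.27 for Ndufb4 and 1.17 for Atp5g1, which was then short of the threshold. Ndufa11, Ndufb5, Ndufc2, Ndufs8 and Uqcrc1 were also past the threshold.

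The 3 tumour members past the threshold in the lower direction were scarce. Cox6a2 stood at 12.8 CPM in mock and 2.29 CPM in PTIR1 (0.178, 0.0932 to 0.313), and 45.1% and 76.9% of its UMIs came from 5 cells. Ndufa4l2 stood at 12.7 and 4.04 CPM (0.319, 0.197 to 0.494) and was present in 25 of 143 and 10 of 65 cells, with 58.2% and 78.3% of UMIs in 5 cells. Shmt2, its opposite-strand neighbour, was at 122 and 116 CPM. Ndufaf1, a complex I assembly factor, stood at 10.0 and 5.98 CPM (0.596, 0.398 to 0.871). Sdha, the flavoprotein of complex II, stood at 73.3 and 62.6 CPM (0.854) and Cox6a1 at 269 and 254 CPM (0.943, 0.887 to 1.002). With the cell of most UMIs in each library left out, the ratio was 0.190 for Cox6a2, 0.292 for Ndufa4l2 and 0.632 for Ndufaf1. It was then 0.896 (0.788 to 1.02) for Sdha and 0.962 (0.904 to 1.02) for Cox6a1, both with intervals that include 1. Cells that passed both the tumour and the fibroblast gate, 16 in mock and 48 in PTIR1, were not in these sums.

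In neutrophils the summed level was 8546 CPM in mock and 10595 CPM in PTIR1, a ratio of 1.24 (1.19 to 1.29). Of 68 measured members 34 were higher past the threshold, against 25.5% of 2631 genes, 1 was lower (Ndufa3), against 24.6%, and 6 had a ratio under 1, against 50.4%. No complex stood apart: the ratio was 1.24 for complex I, 1.29 for II, 1.18 for III, 1.27 for IV and 1.24 for V. The counts were small, with 4058 and 7896 member UMIs in all. The direction depended on which cells were counted as neutrophils. Among cells without a C1q UMI the level was 9279 CPM (91 cells) and 10398 CPM (183 cells), and with a C1q UMI 7234 and 11569.6 CPM (53 and 46 cells). Among cells with at most 20 macrophage marker UMIs per 10000 the log2 ratio was reversed, at -0.27 (-0.37 to -0.17, 42 and 76 cells). Of 64 members measured in the cells without C1q, 13 were higher and 3 lower, and of 25 measured in the cells low in macrophage markers, 2 were higher and 10 lower. The share of all genes is not given for these smaller sets of cells, and the 25.5% and 24.6% hold for all neutrophil-gated cells only. These splits were chosen after seeing the data. Macrophage markers summed to 48.7 and 62.4 UMIs per 10000 in all neutrophil-gated cells, a list that includes Lyz2, which neutrophils also express. Immature neutrophil genes stood at 4224 and 8945 CPM, and without cells holding an Ngp, Ltf or Camp UMI the log2 ratio was 0.24. Of these cells 19 of 144 and 69 of 229 lay near the threshold of the gate.

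The neutrophil members named above 1 were led by complex IV. Cox7c stood at 133 CPM in mock and 247 CPM in PTIR1 (1.86, 1.39 to 2.52) and Cox6a1 at 122 and 201 CPM (1.65, 1.21 to 2.27). The complex I subunits Ndufs7 (35.8 and 75.1 CPM, 2.10) and Ndufa6 (73.7 and 130.2 CPM, 1.77) and Cox7a2l (105 and 174 CPM, 1.66) followed. Below 1 were Ndufa3 (82.1 and 59.0 CPM, 0.719), Atp5d (196 and 169 CPM), Ndufb7 (126 and 119 CPM), Ndufa1 (73.7 and 65.8 CPM) and Ndufa8 (65.3 and 63.1 CPM), all 5 with intervals that include 1.

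In NK cells the summed level was 19798 CPM in mock and 20153 CPM in PTIR1 (1.02, 1.01 to 1.03). No member of the 86 measured was past the threshold in either direction, against 13.5% of 9502 genes lower and 8.92% higher, and 31 had a ratio under 1, against 59.8%. Ndufa11 (116 and 139 CPM, 1.19), Ndufc2 (115 and 137 CPM, 1.19), the Rieske protein gene Uqcrfs1 of complex III (113 and 134 CPM, 1.18), Atp5md (165 and 186 CPM) and Sdhd (80.5 and 94.4 CPM, 1.17) were named above 1. Ndufa9 (76.8 and 63.4 CPM, 0.826), Ndufa3 (134 and 119 CPM), Atp5e (714 and 675 CPM), Ndufaf4 (42.4 and 34.9 CPM, 0.823) and Ndufb10 (155 and 141 CPM) were named below it. All 13 mitochondrially encoded genes had a ratio under 1 in NK cells, beside the 59.8% of all genes, with a summed ratio of 0.886.

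In T cells the summed level was 18707 CPM in mock and 19263 CPM in PTIR1 (1.03, 1.01 to 1.05). Of 83 measured members 3 were higher past the threshold, against 15.8% of 7167 genes, 2 were lower, against 20.5%, and 31 were under 1, against 53.6%. The 3 were Sdhd, a membrane anchor of complex II (71.4 and 98.3 CPM, 1.38), Ndufb3 (118 and 155 CPM, 1.32) and the core subunit Ndufv2 (102 and 129.8 CPM, 1.27), and the 2 were the assembly factors Ndufaf3 and Ndufaf7. Atp5b, the catalytic subunit of ATP synthase (490.0 and 564 CPM, 1.15), and Ndufs4 (104 and 129.8 CPM, 1.248) were also among the 5 named above 1. Cox7a2l led those below, at 453 and 367 CPM (0.81, 0.728 to 0.901), with Uqcrh (646 and 589 CPM), Cox8a (791 and 734 CPM), Cox7c (528 and 482 CPM) and Atp5e (608 and 583 CPM) after it, and the intervals of Cox8a, Cox7c and Atp5e include 1. Without cells holding a Mki67 or Top2a UMI the log2 ratio of the sum was -0.039 in place of 0.042, so the direction turned. Cell cycle genes had a summed ratio of 0.682 in these cells. The makeup of the gate also differed: Cd8a stood at 453 and 106 CPM (51.0% and 18.6% of cells with a UMI), Cd8b1 at 339 and 74.3 CPM and Cd4 at 63.6 and 84.0 CPM. The part of CD8 T cells in these ratios was not tested.

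In B cells the summed level was 14985 CPM in mock and 15568 CPM in PTIR1 (1.04, 1.02 to 1.05). Of 83 measured members 1 was higher past the threshold (Ndufa1), against 12.4% of 7672 genes, 1 was lower (Ndufv3), against 20%, and 31 were under 1, against 58.7%. Ndufv3 stood at 95.7 and 74.4 CPM (0.777, 0.644 to 0.941) and Ndufa1 at 103 and 129.7 CPM (1.26, 1.06 to 1.49). Atp5c1 (225 and 277 CPM, 1.23), Cox4i1 (718 and 822 CPM, 1.14), Atp5g3 (145 and 178 CPM, 1.23) and Atp5a1 (265.0 and 313 CPM, 1.18) were above 1, and Cox7c (414 and 374 CPM), Sdha (98.4 and 82.8 CPM), Ndufa6 (229.6 and 210.4 CPM) and Uqcr11 (133 and 118 CPM) below, the last 3 with intervals that include 1. The direction of the sum turned when each cell weighed the same (-0.0077), when cells were thinned to 1000 UMIs (-0.0032) and without cells holding a Mki67 or Top2a UMI (-0.0022), and the intervals of these 3 values include 0. Cell cycle genes had a summed ratio of 1.87 in B cells.

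In the smaller classes the ratio was 0.929 (0.91 to 0.949) for conventional dendritic cells, 0.968 (0.949 to 0.987) for plasmacytoid dendritic cells, 1.07 (1.04 to 1.09) for mast cells and 0.945 (0.929 to 0.96) for fibroblasts, of which the mock library held 27. In conventional dendritic cells Ccr7 and Fscn1, genes of migratory dendritic cells, stood at 733 and 852 CPM in mock and 1619.7 and 1359 CPM in PTIR1, while Cd209a stood at 429 and 237 CPM and H2-DMb2 at 522 and 244 CPM. Mast cells of the libraries also differed in their median mitochondrial share, 4.11% in mock and 1.09% in PTIR1, and in median depth, 3817 and 2269.5 UMIs. The part of these differences in the ratios was not tested.

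The 4 genes of succinate dehydrogenase did not move as a unit in macrophages and tumour cells. In macrophages Sdhb stood lower in PTIR1 (0.822) while Sdha, at 76.4 and 76.8 CPM, was nearly level, and the membrane anchors Sdhc (83.6 and 78.4 CPM) and Sdhd (122 and 111 CPM) lay between. In tumour cells Sdha was lower (73.3 and 62.6 CPM) while Sdhb (119.7 and 138 CPM) and Sdhc (61.6 and 71.7 CPM) were higher and Sdhd was at 91.6 and 92.3 CPM. With the tumour cell of most UMIs in each library left out, the interval of the Sdha ratio includes 1 (0.788 to 1.02). Sdhd was above 1 in NK and T cells and below 1 in macrophages.

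Related gene lists were set beside the members, each by its summed ratio and counts. In macrophages the mitochondrial ribosome showed a similar shift, with 67 of 78 measured genes under 1 and a summed ratio of 0.943, as did glycolysis (10 of 12 under 1, 0.918), beside 53.0% of all measured genes under 1. The enzymes of the tricarboxylic acid cycle (8 of 17 under 1, 1.003), the mitochondrially encoded genes (5 of 13 under 1, 0.994) and the cytosolic ribosome (47 of 95 under 1, 1.004) stood near 1. The transcriptional regulators, among them Nrf1, Gabpa, Esrra and Tfam, had 5 of 11 measured genes under 1 in macrophages and a summed ratio of 1.02. Immediate early genes, which respond quickly to stimulation of the cell, were higher past the threshold for 13 of 13 genes in macrophages, beside 13.5% of all measured genes, with a summed ratio of 1.55. The electron carriers and other partners had 19 of 25 under 1 (0.962), the hypoxia list 10 of 12 under 1 with a summed ratio above it (1.03), and the cell cycle list 12 of 18 under 1 (0.973). What part, if any, these lists had in the shift of the members was not tested.

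In tumour cells the members parted from glycolysis and hypoxia genes. All 10 measured genes of the hypoxia list were lower past the threshold, beside 25% of the 9954 genes, with a summed ratio of 0.469, and Bnip3 stood at 79.9 and 23.03 CPM. The member Ndufa4l2 was among these 10, while the member Cox4i2, also on the list, had 2 and 1 UMIs and was not measured. Against the same 25%, 7 of 12 glycolysis genes were lower, with a summed ratio of 0.733, and Pgk1 stood at 1223 and 539.9 CPM. Cell cycle genes had a summed ratio of 0.669, with 15 of 18 lower. The cytosolic ribosome was at 1.09, the mitochondrial ribosome at 1.06, the tricarboxylic acid cycle at 1.05, electron carriers and other partners at 1.06, the mitochondrially encoded genes at 0.948 and the regulators at 0.896, while 10 of 13 immediate early genes were higher (1.58), beside 9.51% of genes. In neutrophils the cytosolic ribosome stood higher in PTIR1 by more than the members, with 66 of 80 measured genes past the threshold, beside 25.5% of all, and a summed ratio of 1.38, and the mitochondrial ribosome was at 1.23 with 10 of 19 measured genes past it. The mitochondrially encoded genes were at 1.04 in neutrophils.

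**Figure D5:**
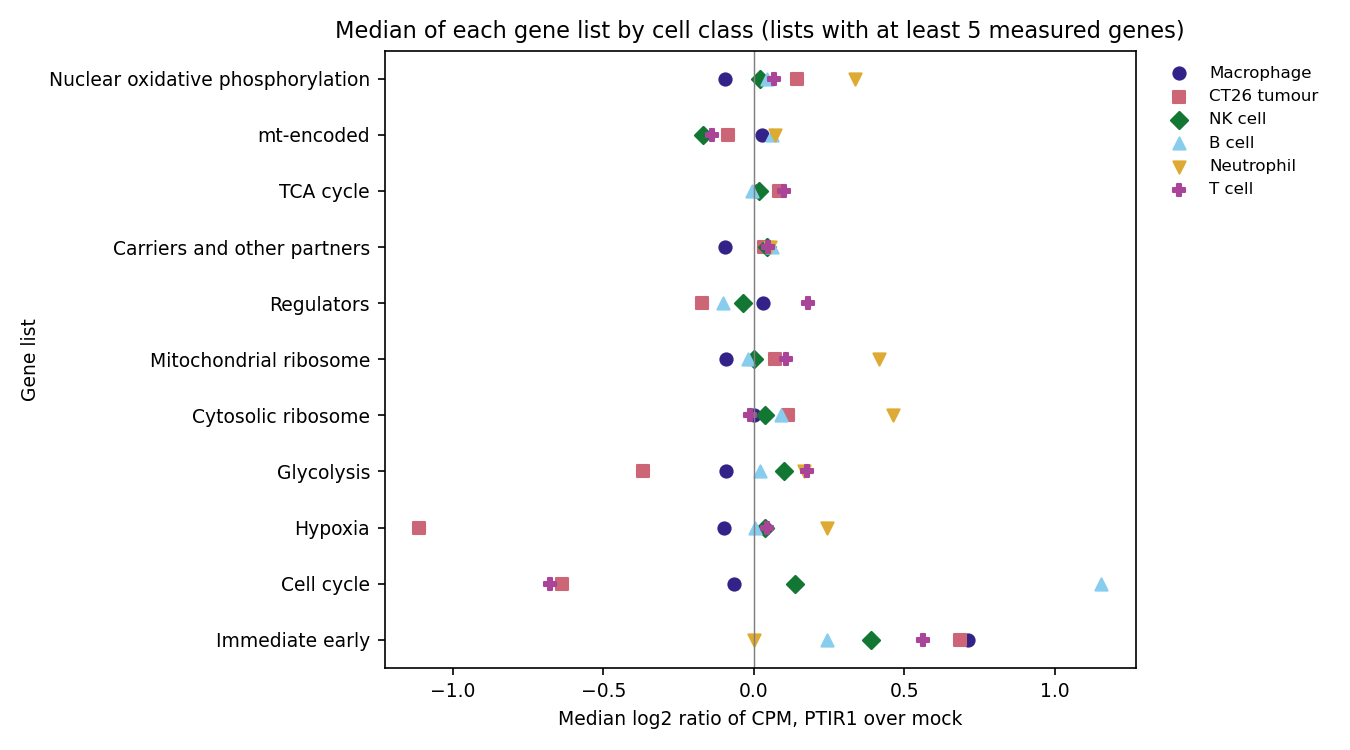
Points give the median log2 ratio of CPM, PTIR1 over mock, of each gene list (rows) in 6 classes (symbols), for lists with at least 5 measured genes and 1 library a group. In tumour cells the members lie at 0.14, glycolysis at -0.37 and hypoxia at -1.11.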

How the data were processed

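The libraries were made with the 10x 3' kit, version 3.1, per the labels' protocols. The deposited files hold UMI counts per gene and barcode. Cell Ranger 5.0.0, Seurat 3.2.3 and the build mm10 are named in the submitters' processing notes, and whether the counting used strand is not given in the sources used here. The deposited counts were used as they are, with no columns left unused (0).

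The cell filter asked for 200 genes or more and for a mitochondrial share of no more than 10%. A class gate required a number of marker genes with a UMI and a minimum of marker UMIs per 10000, with markers listed in advance of gating and thresholds set after the counts were seen. Cells passing several gates were left out as the treatment of doublets, and Scrublet was tried as an alternative. UMIs were summed per class and library and scaled to CPM. Ratios carry exact conditional binomial, levels exact Poisson and shares exact binomial (Clopper-Pearson) 95% intervals. These cover counting error only. With 1 library a group there was no test, and a gene counted as higher or lower at a CPM ratio of at most 0.8 or at least its inverse, with at least 50 UMIs in the class. Members named were the 5 in each direction per class whose interval end nearest to 1 lay farthest from 1, the 10 with the largest ratio of highest class to median, the paralog groups and the 4 Sdh genes. The members and lists were chosen with earlier results of these data known. Identifiers of 94 of 94 members were matched to GENCODE M21, and exons of 30 overlap a gene on the opposite strand. The computation of ratios was tested on simulated Poisson counts, which hold no variation between cells or libraries. That simulation cannot show how the intervals hold for such variation. Sums, intervals and figures were made with scanpy 1.11.5, pandas 2.3.3, anndata 0.12.19, matplotlib 3.10.9, scipy 1.17.1 and numpy 2.4.6 under Python 3.11.15. Alternatives changed the cell filters, doublet removal, cell weights, depth, scaling, UMI minimum, gates, cells with a Mki67 or Top2a UMI, assembly factors and the fold.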

Additional observations from a re-analysis of the deposited data

Results flagged for a closer look

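The summed ratio of the members, PTIR1 over mock, lay on different sides of 1 in different cell classes. It was under 1 in macrophages (0.935), conventional dendritic cells (0.929), plasmacytoid dendritic cells (0.968) and fibroblasts (0.945). It was over 1 in neutrophils (1.24), mast cells (1.07), NK cells (1.02), T cells (1.03), B cells (1.04) and tumour cells (1.102). With 1 library a group the difference between classes was not tested.

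Cells outside the comparisons also held member transcripts. Cells that passed no gate had a summed level of 19523 CPM in mock and 18962 CPM in PTIR1, and cells that passed several gates 19414.5 CPM and 19026 CPM. The limit that a count of 0 allows (3 UMIs) was 0.172 and 0.150 CPM for the former and 0.309 and 0.268 CPM for the latter.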

How the results depend on the processing

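The summed ratio kept its direction in macrophages (log2 -0.10 to -0.075 over 14 alternatives) and NK cells (0.018 to 0.079 over 12, with an interval that includes 0 in thinned cells). In tumour cells it was 0.0076 to 0.24 over 14 alternatives, of which 10 moved it by more than its counting interval, and the lowest value, from 21 and 23 cells without a Mki67 or Top2a UMI, has an interval that includes 0 (-0.019 to 0.035), as has the value from thinned cells (-0.015 to 0.17). It turned in at least 1 alternative in B cells (3 of 13), neutrophils (1 of 15) and T cells (1 of 12). Those that split cells by Arg1, by C1q, by macrophage markers or by Ngp, Ltf or Camp, that added the cells of both gates or left out the deepest tumour cell, were chosen after seeing the data. In neutrophils, depth limits single members, since 68 of 91 reached 50 UMIs. No paired analysis was possible because each group is 1 library. The values that moved by more than their counting interval, or by more than 1.5 times for a count, follow, and the cause was not tested. The counts of members among them stand without the share of all genes under the same setting. They show how far a count depends on the setting, and not how the members compare with other genes.

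With cells of at most 20% mitochondrial UMIs, the log2 ratio was 0.15 in tumour cells. With at most 5%, the log2 ratio was 0.17 in tumour cells, 0.085 in B cells and -0.42 for B cells over macrophages in mock. 5 members lower in tumour cells, 1 member either way in NK cells and 6 members either way in B cells were past the fold. With the highest Scrublet scores removed, the log2 ratio was 0.48 in neutrophils, -1.40 for neutrophils over macrophages in mock, -0.42 for B cells over macrophages in mock and -0.27 for B cells over macrophages in PTIR1. 2 members lower in macrophages, 0 members higher in macrophages and 0 members lower in neutrophils were past the fold. With each cell weighing the same, the log2 ratio was -0.075 in macrophages, 0.048 in tumour cells, -0.0077 in B cells (reversed), 0.38 in neutrophils, -1.17 for neutrophils over macrophages in mock, -0.37 for B cells over macrophages in mock, -0.71 for neutrophils over macrophages in PTIR1 and -0.30 for B cells over macrophages in PTIR1. 6 members higher in tumour cells, 1 member either way in NK cells and 11 members either way in T cells were past the fold. Thinned to 1000 UMIs, the log2 ratio was -0.079 in macrophages, 0.077 in tumour cells, -0.0032 in B cells (reversed), 0.45 in neutrophils, 0.13 in T cells, -1.27 for neutrophils over macrophages in mock, -0.36 for B cells over macrophages in mock, -0.74 for neutrophils over macrophages in PTIR1 and -0.29 for B cells over macrophages in PTIR1. 5 members lower in macrophages, 7 members lower in tumour cells, 10 members either way in NK cells, 19 members either way in B cells, 0 members lower in neutrophils, 16 members higher in neutrophils and 18 members either way in T cells were past the fold. The Cox6a2 share was 86.4% in PTIR1. Scaled without mitochondrially encoded genes, the log2 ratio was -0.38 for B cells over macrophages in mock and -0.23 for B cells over macrophages in PTIR1. Scaled also without ribosomal protein genes, the log2 ratio was 0.19 in tumour cells, 0.093 in B cells, -1.39 for neutrophils over macrophages in mock, -0.18 for B cells over macrophages in mock, -0.93 for neutrophils over macrophages in PTIR1 and 0.015 for B cells over macrophages in PTIR1 (reversed). 17 members higher in tumour cells and 4 members either way in B cells were past the fold. With the median of all genes set to 0, the log2 ratio was -0.084 in macrophages, 0.24 in tumour cells, 0.079 in NK cells, 0.12 in B cells and 0.067 in T cells. 23 members higher in tumour cells and 4 members either way in B cells were past the fold. With at least 200 UMIs a gene, 1 member lower in tumour cells, 0 members lower in neutrophils, 8 members higher in neutrophils and 3 members either way in T cells were past the fold. With no UMI minimum, 2 members higher in macrophages, 3 members either way in NK cells, 9 members either way in B cells, 4 members lower in neutrophils and 9 members either way in T cells were past the fold. With 1 more marker in each gate, the log2 ratio was -0.10 in macrophages, 0.19 in tumour cells and -0.74 for neutrophils over macrophages in PTIR1. 22 members higher in tumour cells and 2 members either way in T cells were past the fold. Without cells holding a Mki67 or Top2a UMI, the log2 ratio was -0.084 in macrophages, 0.0076 in tumour cells, -0.0022 in B cells (reversed), 0.43 in neutrophils, -0.039 in T cells (reversed), -1.37 for neutrophils over macrophages in mock, -0.85 for neutrophils over macrophages in PTIR1 and -0.31 for B cells over macrophages in PTIR1. 6 members lower in tumour cells, 3 members either way in NK cells and 0 members lower in neutrophils were past the fold. Without assembly factors, 3 members either way in T cells were past the fold. At a fold of 1.5, 0 members higher in macrophages, 1 member higher in tumour cells, 0 members either way in B cells, 0 members lower in neutrophils, 11 members higher in neutrophils and 0 members either way in T cells were past the fold. At a fold of 1.1, 22 members lower in macrophages, 3 members higher in macrophages, 46 members higher in tumour cells, 14 members either way in NK cells, 23 members either way in B cells, 3 members lower in neutrophils and 29 members either way in T cells were past the fold. With cells of both gates counted as tumour cells, the log2 ratio was 0.10 in tumour cells. Without the tumour cell of most UMIs in each library, the log2 ratio was 0.11 in tumour cells. Among macrophages with an Arg1 UMI, the log2 ratio was -0.083 in macrophages. Among neutrophils without Ngp, Ltf or Camp, the log2 ratio was 0.24 in neutrophils. 2 members lower in neutrophils were past the fold. Among neutrophils with at most 20 macrophage marker UMIs per 10000, the log2 ratio was -0.27 in neutrophils (reversed). 10 members lower in neutrophils and 2 members higher in neutrophils were past the fold. Among cells without a C1q UMI, the log2 ratio was 0.16 in neutrophils and 0.083 in B cells. 3 members lower in neutrophils, 13 members higher in neutrophils and 6 members either way in B cells were past the fold.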

Other observations

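Cox6a2 was also found outside the gated plasmacytoid dendritic cells. Cells that passed several gates held it at 26.4 CPM in mock and 48.0 CPM in PTIR1, and cells that passed no gate at 8.71 and 5.49 CPM. The median depths were 19863.5 and 25374 UMIs for the former and 988 and 1556 UMIs for the latter.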
